A study of Mus musculus with 20 samples.

Results

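The comparison described here is the effect of losing the Rag GTPases minus the effect of losing the Rheb GTPases, gene by gene, in unstimulated regulatory T cells (Tregs). It rests on 10 of the 20 arrays of the series, chosen by their titles. In the Rag experiment, 2 arrays held unstimulated RagAB KO Tregs and 2 held unstimulated wild-type (WT) Tregs. In the Rheb experiment, 3 arrays held unstimulated Rheb1/2 KO Tregs and 3 held unstimulated WT Tregs. All mice had the C57BL/6 background, and all cells were sorted as CD4+CD25+ after enrichment with CD4 beads. The labels name neither the promoter of a deleting Cre, nor an age or sex, nor whether arrays of the same group hold cells of different mice. The p-values therefore describe the spread among these arrays, which may be technical. The treatment field calls the 3 unstimulated Rheb1/2 KO arrays stimulated, while their titles and source names, which were followed here, say unstimulated. It likewise calls the 3 stimulated WT arrays of the Rheb experiment unstimulated, and these enter every stimulated difference and the shared spread. The 10 stimulated arrays did not enter the unstimulated effects, but they share with the unstimulated ones the estimate of spread for each gene. Stimulation lasted 8 h in the Rag experiment. No time was recorded here for the Rheb experiment, so stimulated differences may compare unlike times.

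Both GTPase families control mTORC1, the kinase complex that matches protein, lipid and nucleotide synthesis to nutrients and growth signals. Rag GTPases, heterodimers of RagA or RagB with RagC or RagD, bring mTORC1 to the lysosome surface when amino acids are plentiful, and Rheb, which the TSC complex turns off, activates the kinase there. Rag GTPases, through RagC and RagD, also keep the transcription factors TFEB and TFE3, which drive lysosome genes, out of the nucleus, a branch that depends much less on Rheb. A difference between the effects of losing each family is the quantity measured below. Each difference is in log2 units: positive values mean that the level was higher, or less reduced, in the Rag knockout than in the Rheb knockout, with each knockout set against WT cells from the same experiment.

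The sequences below are the promoters of 4 genes whose difference was called in unstimulated and again in stimulated Tregs and which were not targeted. They are the 250 bases before the annotated start, from RefSeq on GRCm38.p6, written 5′ to 3′ along the gene's strand. Hpgds lies on chromosome 6, with the window at chr6:65144731-65144980 on the minus strand. The windows of the other genes lie on the plus strand, for Eps8l1 at chr7:4460447-4460696 (the first of 3 listed starts), for Lilr4b at chr10:51480362-51480611 and for Lcn10 at chr2:25682476-25682725. Capitals mark matches to the 6 motifs searched on both strands.
Hpgds: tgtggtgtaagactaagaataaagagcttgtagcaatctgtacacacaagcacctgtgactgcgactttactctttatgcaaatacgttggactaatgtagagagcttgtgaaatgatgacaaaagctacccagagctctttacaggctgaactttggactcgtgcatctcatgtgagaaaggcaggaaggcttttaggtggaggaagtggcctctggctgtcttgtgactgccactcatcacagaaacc
Eps8l1: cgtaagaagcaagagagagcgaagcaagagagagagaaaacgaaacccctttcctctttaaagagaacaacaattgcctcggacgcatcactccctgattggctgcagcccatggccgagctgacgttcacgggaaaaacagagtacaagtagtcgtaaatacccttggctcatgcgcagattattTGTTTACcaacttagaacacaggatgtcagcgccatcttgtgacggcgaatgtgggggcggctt
Lilr4b: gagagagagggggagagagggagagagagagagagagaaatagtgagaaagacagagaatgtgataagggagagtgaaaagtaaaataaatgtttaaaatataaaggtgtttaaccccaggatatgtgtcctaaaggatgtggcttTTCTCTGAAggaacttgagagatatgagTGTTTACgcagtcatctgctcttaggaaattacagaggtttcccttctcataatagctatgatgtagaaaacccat
Lcn10: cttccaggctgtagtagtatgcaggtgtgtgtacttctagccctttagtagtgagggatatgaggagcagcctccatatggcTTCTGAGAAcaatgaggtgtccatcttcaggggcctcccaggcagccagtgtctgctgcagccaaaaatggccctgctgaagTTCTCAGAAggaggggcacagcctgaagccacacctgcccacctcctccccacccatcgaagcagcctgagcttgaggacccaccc
The motifs were the E-box CACGTG bound by TFEB and MYC, the FoxO motif GTAAACA, the amino acid response element TGATGNAA, the STAT motif TTCNNNGAA, the AP-1 motif TGANTCA and the GATA motif AGATAA. The FoxO motif was found in Eps8l1, starting 64 bases before the gene, and in Lilr4b, starting 76 bases before it. The STAT motif was found in Lilr4b at 104 bases and in Lcn10 at 168 and at 86 bases. No motif searched was found in the Hpgds window. The windows of the other called genes were searched too and are not shown. Those of Ccr9 and Col27a1 held no motif, and that of the targeted gene Rraga held the STAT motif at 105 bases. Of 27025 mouse promoters of this length, 3.09% held the FoxO motif, 7.18% the STAT motif, 6.05% the E-box, 3.53% the amino acid response element, 6.87% the AP-1 motif and 10.3% the GATA motif. None of the matches overlapped another, and a match is a description of letters, not of a binding site.

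Array medians were 7.67 to 7.74 (log2 signal) in the unstimulated Rheb experiment and 7.18 to 7.52 in the unstimulated Rag experiment. Rag KO array 1 and Rag-experiment WT array 2 were the lowest, with medians of 7.29 and 7.18. Replicates differed by a median of 0.142 to 0.184 per gene in the Rheb experiment, by 0.281 between the Rag KO arrays and by 0.363 between their WT arrays. The median SE of a knockout effect was accordingly 0.256 for Rag and 0.128 for Rheb, and 0.29 for their difference. The 12 measured genes of T cell and Treg identity, among them Il2ra, Ctla4 and Ikzf2, averaged 10.93 to 11.84 on the 10 arrays, far above the array medians. Foxp3 was not analysed here.

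In unstimulated Tregs the Rag and Rheb effects differed for 7 of 19505 genes at an adjusted p below 0.05 (limma, Benjamini-Hochberg over all genes; such genes are named called below), which is 0.0359% of the genes tested. The difference was positive for 6 of them, 0.0308% of genes, and negative for 1, 0.00513%, which was the targeted gene Rraga. After a second quantile normalization the split was 14 positive and 8 negative, and after centring each array on its median 10 and 4. It was 36 positive and 209 negative without Rag KO array 2, and 8 and 8 without WT array 1 of the Rag experiment. At an unadjusted p below 0.05 there were 997 genes (5.11%), 338 with a positive (1.73%) and 659 with a negative difference (3.38%). The Rag effect itself was called for 22 genes (0.113%), 10 higher (0.0513%) and 12 lower (0.0615%) in the knockout, or 27 and 18 after the second quantile normalization. That split also turned with single arrays, to 69 higher and 461 lower without Rag KO array 2 and to 17 and 4 without Rag KO array 1. The Rheb effect was called for 99 genes (0.508%), 44 higher (0.226%) and 55 lower (0.282%). The count of 7 moved most with the arrays of the Rag experiment: it was 245 without KO array 2, 16 without WT array 1 and 0 (limma) without WT array 2 (932 genes at an unadjusted p below 0.05). With all arrays and no moderation of the variance it was also 0, with 738 genes at an unadjusted p below 0.05. For the Rag effect the same omissions gave 530, 1 and 0 genes, and leaving out a stimulated array of that experiment gave 9 for either KO array and 5 for either WT array. The Rheb effect fell to 54 or 39 genes without its WT array 1 or 3, to 41 or 40 without its KO array 1 or 2, and to 52, 61 or 60 without stimulated KO array 1, 2 or 3.

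**Figure D1:**
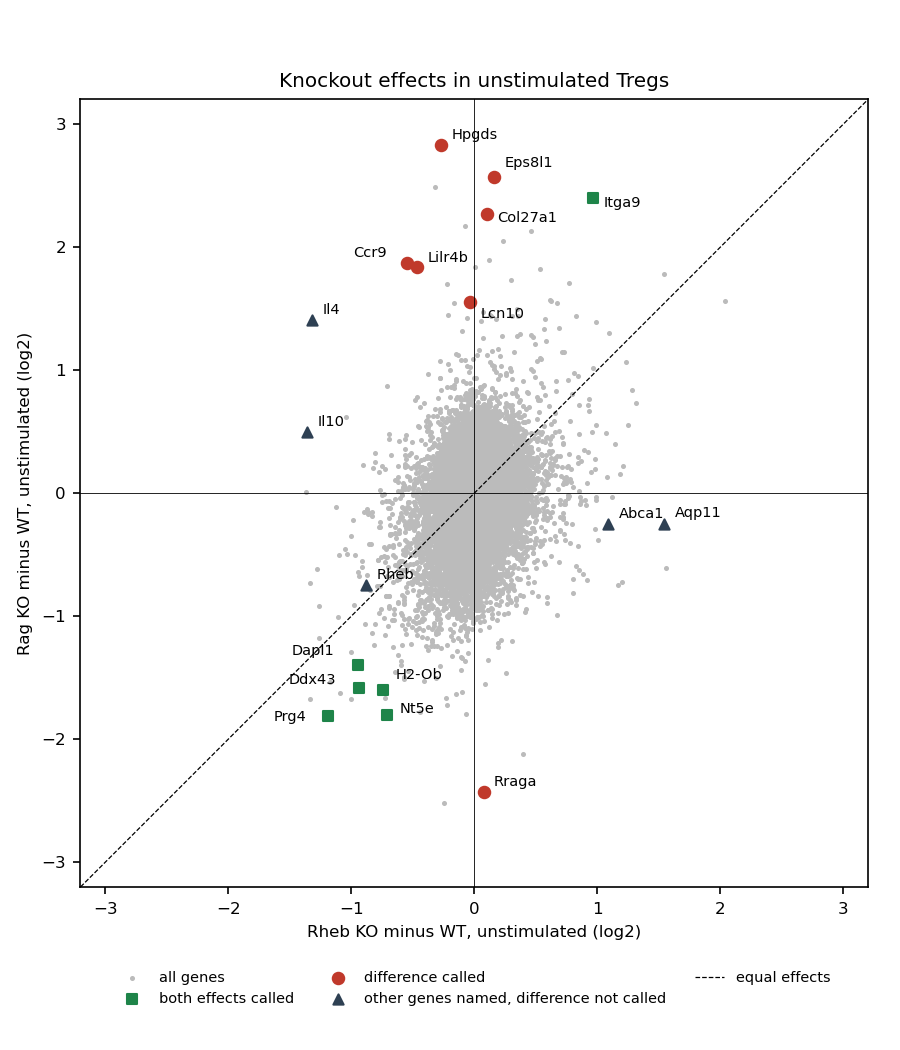
The Rheb effect (horizontal axis, log2) is plotted against the Rag effect (vertical axis, log2) for 19505 genes, with the line of equal effects dashed. The 7 genes with a called difference have Rheb effects between -0.55 (Ccr9) and 0.16 (Eps8l1), and each has a Rag effect larger in size than its Rheb effect.

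Rraga, which encodes RagA, read 6.67 and 6.99 on the Rag KO arrays against 9.19 and 9.33 on their WT arrays. In the Rheb experiment it read 9.83, 9.57 and 10.06 on WT arrays, and the KO arrays lay within that range. The Rag KO arrays thus stood apart from all 8 others, and the difference was -2.51 ± 0.28 (SE, adjusted p = 0.000626, limma). The fold change from WT to KO was thus 5.68-fold lower for Rag loss than for Rheb loss. Folds given with other differences below are also such ratios of fold changes, not ratios of levels. Rragb, which encodes RagB, read 6.56 and 7.42 against 7.17 and 6.98, so the groups overlapped, and it lay below the array median on all 10 arrays. Its difference was -0.12 with a 95% interval from -0.90 to 0.66, and where its probes lie relative to the deleted part was not analysed here.

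Rheb read 8.81, 8.82 and 9.05 on the Rheb1/2 KO arrays against 9.83, 9.34 and 10.14 on their WT arrays, a called fall of 0.88 (adjusted p = 0.0413, limma). It also read lower on both Rag KO arrays, 7.99 and 8.79 against 9.05 and 9.22, an effect of -0.75 that was not called. The difference for Rheb was therefore 0.13, with an interval from -0.57 to 0.84. Its sign turned without Rag KO array 2, to -0.27, and without WT array 3 of the Rheb experiment, to -0.05. Rhebl1, the second Rheb gene, lay below the 25th percentile of 6 arrays, all of the Rheb experiment. There it read 5.30, 5.22 and 5.11 on KO against 5.91, 5.76 and 5.10 on WT arrays. The groups overlapped, and its Rheb effect of -0.38 was not called (adjusted p = 0.521, limma). Its difference was 0.51 with an interval from -0.11 to 1.13. In stimulated arrays the difference was 1.54 and was called (adjusted p = 0.0272, limma).

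Hpgds encodes hematopoietic prostaglandin D synthase, the enzyme that makes prostaglandin D2 in mast cells, macrophages and some T helper cells. It had the largest difference of the called genes. Its level was 9.16 and 10.04 on the Rag KO arrays against 7.28 and 6.26 on their WT arrays. Rheb-experiment WT arrays read 7.67, 8.09 and 7.71 and KO arrays 7.87, 7.40 and 7.40. Both Rag KO arrays were above all 8 others, while the Rheb groups overlapped. The difference was 3.10 ± 0.44 (adjusted p = 0.0101, limma), a fold change from WT to KO that was 8.55-fold higher for Rag loss than for Rheb loss.

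Ccr9, the chemokine receptor for CCL25 that guides T cells to the small intestine and thymus, read 9.79 and 9.91 on the Rag KO arrays and 8.39 and 7.57 on their WT arrays. In the Rheb experiment it read 7.49, 7.27 and 8.61 on WT and 7.05, 7.51 and 7.17 on KO arrays. Again the Rag KO arrays were the highest of the 10, with no overlap. The difference was 2.42 ± 0.43 (adjusted p = 0.0192, limma), 5.34-fold, and it was not called without Rag-experiment WT array 2, nor without WT array 3, KO array 1 or KO array 3 of the Rheb experiment.

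Eps8l1, an Eps8 family gene whose products act on the actin cytoskeleton, followed another pattern. It read 8.00 and 8.38 on the Rag KO arrays and 5.56 and 5.68 on their WT arrays. The 6 arrays of the Rheb experiment read 7.49, 8.64 and 8.21 in WT and 7.72, 8.56 and 8.56 in KO. The Rag KO level thus lay inside the range of the Rheb experiment, and the 2 WT arrays of the Rag experiment were the ones that stood apart, below all 8 others. Both of those values lay below the 25th percentile of their array. The difference of effects was 2.41 ± 0.39 (adjusted p = 0.0101, limma).

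Lilr4b, a gene of the leukocyte immunoglobulin-like receptor family, read 9.14 and 9.21 on Rag KO arrays against 7.75 and 6.92. It read 8.74, 8.48 and 8.39 on Rheb-experiment WT arrays and 8.14, 8.06 and 8.01 on their KO arrays. The arrays of each knockout were separate from their WT arrays, above in the Rag and below in the Rheb experiment. The difference was 2.31 ± 0.35 (adjusted p = 0.0176, limma), 4.96-fold. Its close paralog Lilrb4a gave 2.81 ± 0.57 and was not called (adjusted p = 0.21, limma). The genes are near-identical in part, so signal shared between their probes cannot be told apart from a change of each.

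Col27a1, a fibrillar collagen gene on chromosome 4 like Rraga, read 9.41 and 8.86 on Rag KO arrays against 6.97 and 6.76. Its 6 values in the Rheb experiment ran from 7.11 to 7.86, with overlapping groups, and the difference was 2.17 ± 0.32 (adjusted p = 0.00797, limma), 4.49-fold. Lcn10, a lipocalin gene best known from the epididymis, read 8.54 and 8.42 on Rag KO arrays and 6.83 and 7.01 on their WT arrays. All 6 arrays of the Rheb experiment lay between 6.73 and 6.94. Its difference was 1.59 ± 0.25 (adjusted p = 0.0242, limma), 3.01-fold. Lcn10 was not called with only the groups compared in the fit (adjusted p = 0.113, limma). It was also not called without either WT array or Rag KO array 1 of the unstimulated Rag experiment, nor without any 1 of its 4 stimulated arrays. Of the other called genes, Rraga, Hpgds, Eps8l1, Lilr4b and Col27a1 each lost their call in the same 2 of 29 alternative analyses, 1 of them the omission of Rag-experiment WT array 2.

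**Figure D2:**
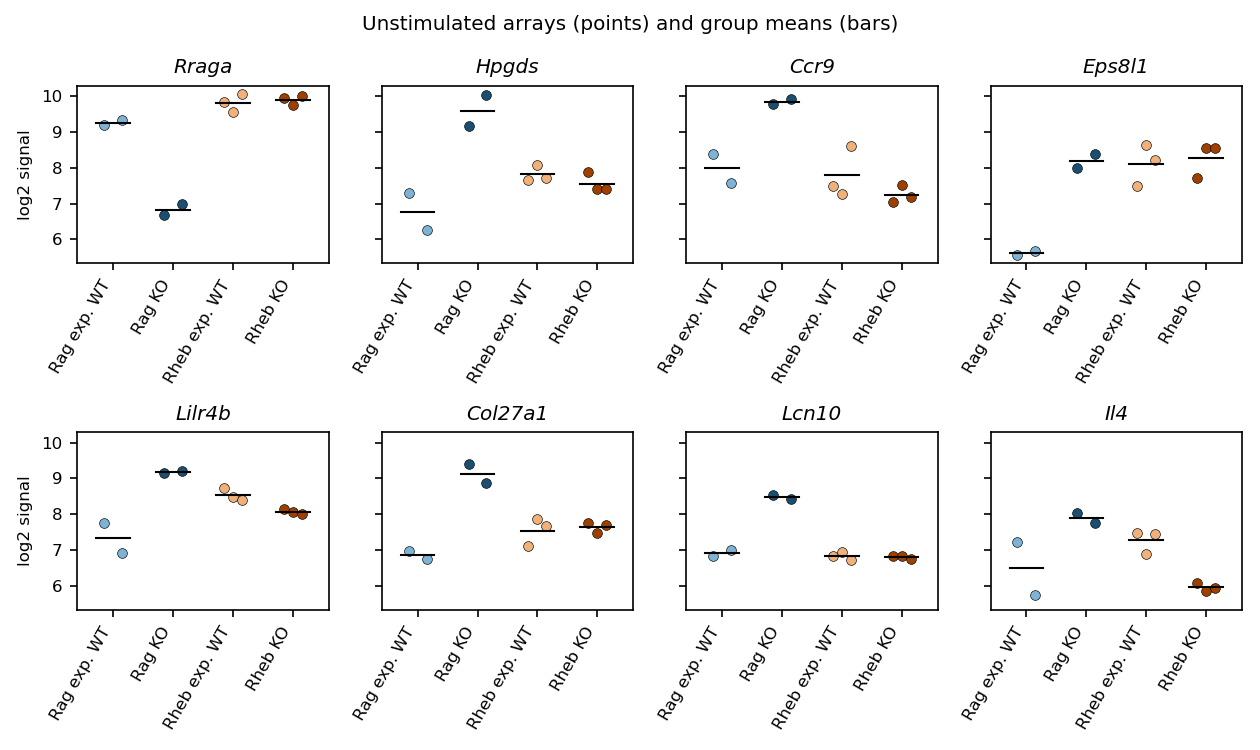
Log2 signals of the 7 called genes and of Il4 on each unstimulated array (points), with group means (bars), for WT and KO arrays of the Rag experiment (2 arrays each) and the Rheb experiment (3 arrays each). Rag KO arrays stand apart from all others for Rraga, Hpgds, Ccr9, Lilr4b, Col27a1, Lcn10 and Il4, whereas for Eps8l1 the WT arrays of the Rag experiment stand low.

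The effects went opposite ways for the cytokine gene Il4, which encodes the T helper 2 cytokine interleukin 4. Il4 read 8.03 and 7.75 on Rag KO arrays against 7.22 and 5.75, and 6.08, 5.85 and 5.94 on Rheb1/2 KO arrays against 7.47, 6.88 and 7.46. Rag KO arrays were above and Rheb1/2 KO arrays below their own WT arrays, without overlap. The signal was low, below the median of 8 arrays and below the 25th percentile of 4, all 3 Rheb1/2 KO arrays among them. The Rheb effect, -1.31, was called (adjusted p = 0.00485, limma), while the Rag effect, 1.41, was not. Their difference of 2.72 ± 0.49 (interval 1.68 to 3.76) missed the threshold (adjusted p = 0.0945, limma) and passed it after the second quantile normalization (adjusted p = 0.0381). Over all alternatives the adjusted p of Il4 (limma) ran from 0.000845 to 0.999.

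Il10, the gene of the anti-inflammatory cytokine interleukin 10, fell in the Rheb knockout as well. It read 7.53, 7.83 and 8.09 on Rheb1/2 KO arrays against a WT mean of 9.17 ± 0.23 (SD, n = 3), a called effect of -1.36 (adjusted p = 0.0113, limma). On the Rag side the groups overlapped, with 7.94 and 8.14 in KO against 8.57 and 6.52 in WT. The difference was 1.85 ± 0.59 with an interval from 0.61 to 3.10, not called over all genes (adjusted p = 0.837, limma). Leaving out 1 array moved it between 0.83 and 2.88, both reached by omitting a WT array of the Rag experiment. Socs2, a feedback inhibitor of STAT5 signalling, gave 8.88, 8.79 and 8.89 on Rheb1/2 KO arrays against 10.02, 9.78 and 9.47. Its Rheb effect of -0.91 was called (adjusted p = 0.00693, limma), its Rag arrays overlapped, and its difference was 1.14 with an interval from 0.35 to 1.92.

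The next positive differences were not called. They belonged to Atp8a2, a phospholipid flippase (1.71 ± 0.32, adjusted p = 0.0687, limma), to Enpp5 (1.67 ± 0.37, adjusted p = 0.179), to Trpm1, a cation channel (1.67 ± 0.36, adjusted p = 0.179), and to Myo1e, a membrane-bound myosin (1.66 ± 0.37, adjusted p = 0.229). Itga9, an integrin subunit, Ptger3, a prostaglandin E2 receptor, and Clhc1 followed with 1.43, 1.44 and 1.35 (adjusted p = 0.21, 0.247 and 0.309, limma). With Lilrb4a these are 8 genes. For 7 of them both Rag KO arrays were above both WT arrays, as for 15.9% of all genes, and Enpp5 was the exception, with 8.00 and 8.56 against 8.02 and 7.29. Trpm1 and Ptger3, like Itga9, had a called Rag effect (2.13, 1.73 and 2.40).

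On the negative side no gene but Rraga was called, and the 14 next genes by p had differences between -1.92 and -1.09. Some were lower in the Rag KO, some were higher in the Rheb1/2 KO, and some were both. Trat1, an adaptor of the T cell receptor complex, read 8.30 and 8.91 on Rag KO arrays against 10.17 and 10.30, and 10.17 to 10.70 on the 6 arrays of the Rheb experiment. Its difference was -1.49 ± 0.30 (adjusted p = 0.179, limma). Elovl5, which elongates polyunsaturated fatty acids, read 7.82 and 8.74 against 9.99 and 10.01, with a difference of -1.50 ± 0.30. Tigit, an inhibitory receptor of effector Tregs, read 7.43 and 8.09 against 9.64 and 9.20, with a difference of -1.44 ± 0.31. For all 3 both Rag KO arrays lay below both WT arrays, as for 12.5% of all genes, and the Rag effect was called for Trat1 (-1.63) and Elovl5 (-1.72). Slc4a8, Siah3, Nucb2 and Ppm1j had the same form, with differences of -1.51, -1.33, -1.18 and -1.11 and Rheb effects between -0.41 and -0.10. For Tigit and Ppm1j the Rheb1/2 KO arrays also lay below all their WT arrays.

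Aqp11, an intracellular aquaporin, instead read 6.49, 6.02 and 6.60 on Rheb1/2 KO arrays against 4.58, 4.97 and 4.92, while its Rag arrays overlapped between 4.59 and 5.24. Its difference was -1.79 ± 0.39 (adjusted p = 0.179, limma), and it lay below the 25th percentile on 8 of the 10 arrays. Spice1, a centriole gene, read 8.21, 8.28 and 8.43 on Rheb1/2 KO arrays against 7.52, 6.90 and 6.91, with a difference of -1.92 ± 0.41. Both had called Rheb effects (1.54 and 1.20) and no called Rag effect. R3hcc1l, Il1rap, a subunit of the interleukin 1 receptor, Map2k6, a kinase upstream of p38, and Mtmr2, a phosphoinositide phosphatase, had a Rag effect below and a Rheb effect above 0. Their Rag effects were -0.84, -0.81, -0.96 and -0.74 and their Rheb effects 0.59, 0.80, 0.42 and 1.17, none of them called.

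Of the 99 genes with a called Rheb effect, 82 (82.8%) had a Rag effect of the same sign, against 60.1% of all genes. None of the 99 had a called difference, and 25 had one at an unadjusted p below 0.05. Of the 22 genes with a called Rag effect, 18 (81.8%) had a Rheb effect of the same sign, 6 had a called difference and 20 had one at an unadjusted p below 0.05. The counts of differences share arrays with the effect that chose their genes. The same-sign counts set effects from separate arrays side by side. Across all 19505 genes, which are not independent replicates, the effects correlated with Pearson's r of 0.282 and Spearman's rho of 0.255; the experiments share no arrays. Both effects were called, always in the same direction, for 6 genes. Nt5e, which encodes CD73, the enzyme with which Tregs make adenosine, read 8.28 and 8.50 on Rag KO arrays against 10.37 and 10.01. It read 10.01, 9.87 and 9.98 on Rheb1/2 KO arrays against 10.63, 10.55 and 10.80. Both knockouts lay below their WT arrays, by 1.80 and 0.71 on the log2 scale, and the difference of -1.09 ± 0.26 was not called (adjusted p = 0.309, limma).

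Itga9 rose in both, by 2.40 and 0.97, with a difference of 1.43 whose interval ran from 0.75 to 2.11. Prg4, the gene of the lubricant proteoglycan 4, Ddx43, a DEAD-box helicase gene, Dapl1, a gene of naive T cells, and H2-Ob, a chain of the MHC class II modulator DO, fell in both. Their Rag effects were -1.81, -1.59, -1.40 and -1.60, and their Rheb effects -1.19, -0.93, -0.94 and -0.74. The intervals of their differences were -1.27 to 0.02, -1.22 to -0.08, -0.98 to 0.08 and -1.46 to -0.24, and none of the differences was called.

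In the stimulated arrays the same difference was called for 25 genes (0.128%), 24 of them positive (0.123%) and 1, Rraga, negative (0.00513%). That count was 65 without either unstimulated Rag KO array, 1 and 7 without stimulated Rag KO array 1 and 2, and 2 without stimulated WT array 2 of the Rag experiment. Tests of both states used the same estimate of spread for each gene, so their calls are not independent. All 7 genes called in unstimulated Tregs had the same sign in stimulated Tregs, a sign that 44.0% of all genes kept, and 5 of 7 were called again. Their stimulated differences were -2.06 for Rraga, 2.90 for Hpgds, 2.31 for Eps8l1, 2.03 for Lilr4b and 1.60 for Lcn10. Ccr9 gave 1.29 (interval 0.41 to 2.17) and Col27a1 0.27 (interval -0.40 to 0.94), neither called. Il4 was called in stimulated Tregs with 3.30 ± 0.49 (adjusted p = 0.00919, limma).

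Of the 15 genes named for a positive difference, 15 had a positive one in stimulated arrays, and of the 15 named for a negative difference, 8 had a negative one. Tigit, for example, gave -0.20 (interval -0.86 to 0.45) and Trat1 -0.55 (interval -1.19 to 0.09) after stimulation, whereas Nt5e kept -1.23 ± 0.26. A change of the difference with stimulation was called for no gene (limma), with 1049 genes at an unadjusted p below 0.05 (5.38%), among them Col27a1 with a change of -1.90 ± 0.46. Across all genes, unstimulated and stimulated differences had a Pearson's r of -0.019 and a Spearman's rho of -0.119.

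**Figure D3:**
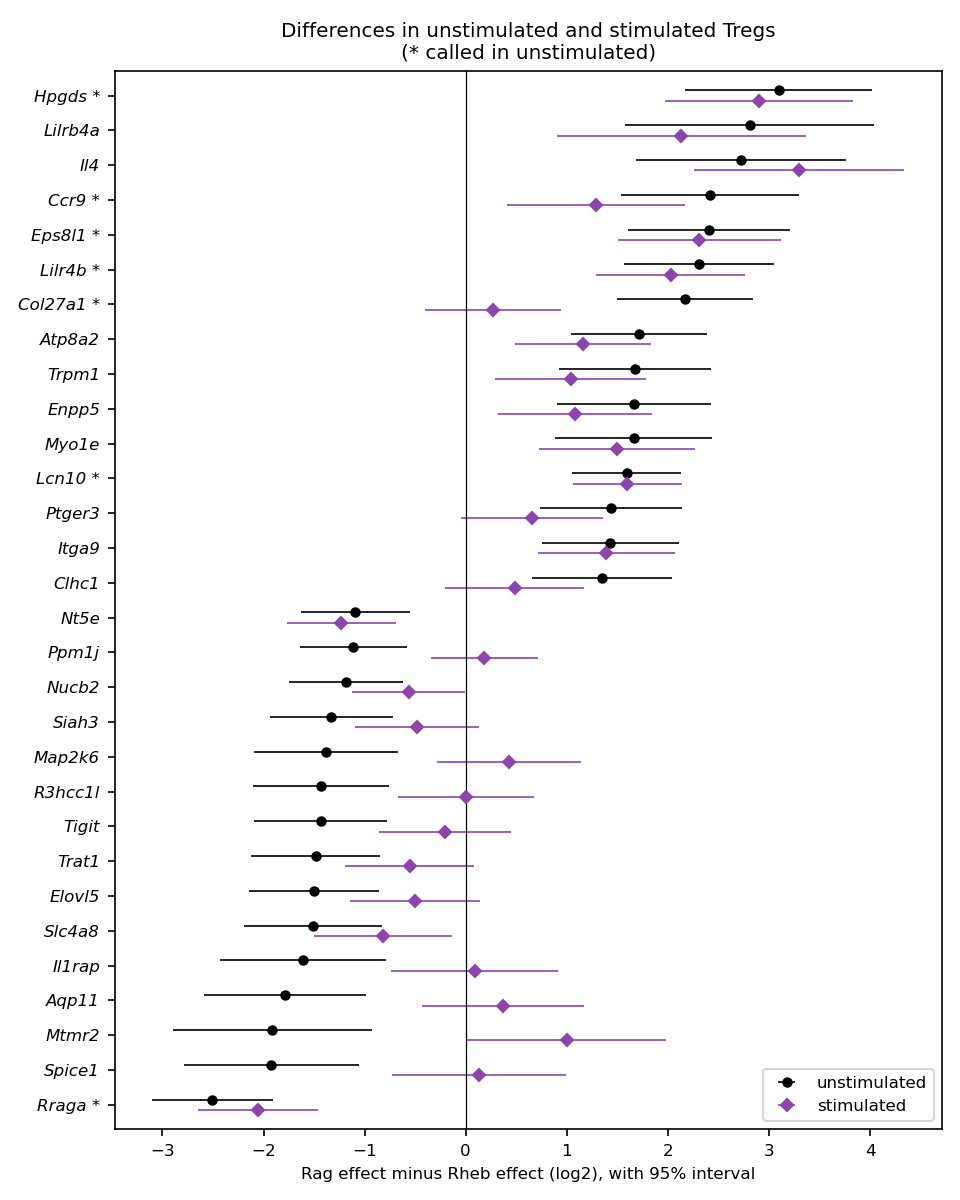
Rag effect minus Rheb effect (log2) with its 95% interval for the 30 genes named by size or p, in unstimulated (circles) and stimulated (diamonds) Tregs; asterisks mark the 7 called in unstimulated Tregs. Stimulated differences are above 0 for all 15 genes in the upper part, and on both sides of 0 for the 15 in the lower part.

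The pathway around the targeted genes was described first. Of 39 measured genes of mTORC1 and amino acid sensing, 1 was called (Rraga), 20 had a positive and 19 a negative difference, and the median was 0.012, against 0.006 over all genes. Mtor, the kinase itself, gave 0.79 with an interval from 0.06 to 1.52, with a called fall of 0.76 in the Rheb1/2 KO (adjusted p = 0.0421, limma) and a Rag effect of 0.02. Flcn and Fnip1, partners that act on RagC and RagD, gave 0.79 and 0.84, and their Rag effects were 0.85 and 0.56. Sesn1, of the sestrin family of leucine sensors, gave -0.71 with an interval from -1.31 to -0.11. Values for Rragc and Rragd, the partners of RagA and RagB, were 0.19 (interval -0.52 to 0.90) and 0.50 (interval -0.20 to 1.19). Mtor, Flcn, Fnip1, Rragc and Rragd were picked after their values were seen.

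Lysosome and autophagy genes driven by TFEB had the highest median difference of the 34 pathway lists, 0.28, with medians of 0.10 for the Rag and -0.09 for the Rheb effect. Of 38 measured members 29 were above 0, against 50.8% of all genes, and none was called. At an unadjusted p below 0.05 there were 5 positive members and 0 negative ones, where all genes gave 1.73% and 3.38%. These were Hexa, a subunit of beta-hexosaminidase (0.94, interval 0.20 to 1.67), Gaa, acid alpha-glucosidase (0.92), Atp6v0d1, a subunit of the proton pump (0.87), the protease gene Tpp1 (0.81) and Lamp1, the main lysosome membrane glycoprotein (0.70, interval 0.11 to 1.28). Lamp1 read 10.86 and 11.24 on Rag KO arrays against 10.90 and 10.31, and 10.67, 10.78 and 10.67 on Rheb1/2 KO arrays against 10.87, 10.94 and 11.04. The Rag groups overlapped while the Rheb1/2 KO arrays were all below WT. Leaving out 1 array at a time kept the list's median above 0 but moved it between 0.03 (without Rag-experiment WT array 2) and 0.46, and it was 0.06 without Rag KO array 2. On that array the list's mean was highest, 9.11 against 8.54 to 9.04 on the other 9, and so was that of 10 neutrophil markers, 8.89 against 6.24 to 7.44. The part of neutrophil RNA in the lysosome list was not tested. In stimulated arrays the median was 0.55 and Hexa was called (1.94 ± 0.35, adjusted p = 0.0272, limma).

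Interferon-stimulated genes lay at the other end. The 34 measured type I interferon-stimulated genes had a median difference of -0.34, with 7 above 0 and 27 below, none called and 5 negative at an unadjusted p below 0.05. The median Rag effect was -0.13 and the median Rheb effect 0.05. Isg15, a ubiquitin-like modifier, read 7.94 and 7.83 on Rag KO arrays against 8.42 and 8.55, and 8.55, 8.32 and 8.76 on Rheb1/2 KO arrays against 8.07, 8.24 and 8.47. Rag KO arrays were below their WT arrays and the Rheb groups overlapped, with a difference of -0.89 (interval -1.47 to -0.30). Slfn1, which restrains T cell growth, Ifit2, Mx2 and Slfn5 gave -0.75, -0.71, -0.65 and -0.60. Of the 15 interferon-gamma-induced GTPases 2 were above 0, the median was -0.32, and Igtp gave -0.88 (interval -1.48 to -0.28). Both medians were below 0 with any 1 array left out, between -0.57 and -0.08 for the type I list and between -0.64 and -0.05 for the GTPases, but in stimulated arrays they were 0.38 and 0.07.

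Lists of growth and biosynthesis had medians below 0 and no member with a called difference. Sterol synthesis genes had median effects of -0.50 (Rag) and -0.29 (Rheb), with 2 and 1 of 19 members above 0. Their median difference was -0.08 and ran from -0.35 to 0.11 with 1 array left out. Hmgcs1, which makes the HMG-CoA used by the pathway, gave -1.07 (interval -1.91 to -0.22). ER chaperones had a median of -0.26, with Pdia6, a disulfide isomerase, at -0.94 (interval -1.56 to -0.32). Cytosolic ribosomal proteins had a median of -0.29 that shrank to -0.03 after the second quantile normalization, and ribosome biogenesis genes -0.18 and -0.10. The respiratory chain gave -0.15, with 34 of 39 members below 0, or -0.07 after that normalization. Eif4ebp1, the translation repressor that mTORC1 phosphorylates, gave -0.89 (interval -1.55 to -0.23). Abca1, the cholesterol exporter, read 8.45, 8.67 and 8.69 on Rheb1/2 KO arrays against 7.34, 7.25 and 7.95, a called effect of 1.09 (adjusted p = 0.0408, limma), and overlapped in the Rag experiment, for a difference of -1.34 (interval -2.06 to -0.62).

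Most cell cycle genes had effects below 0 in both knockouts. Of 38 mitosis genes, 6 had a Rag effect and 7 a Rheb effect above 0, with medians of -0.15 and -0.30 and a median difference of 0.17, and for the 38 genes of G1/S and replication the medians were -0.12, -0.20 and 0.07. None of their differences was called or had an unadjusted p below 0.05. The Rag groups overlapped in the mean of the mitosis list, 6.45 and 7.09 on KO against 7.29 and 6.60 on WT arrays. They also overlapped for the G1/S list, with 8.085 and 8.675 against 8.885 and 8.182. With 1 array left out the median difference ran from -0.12 to 0.46 for mitosis and from -0.24 to 0.46 for G1/S. Translation factors gave -0.165 and LXR targets -0.219. Glycolysis (-0.03), fatty acid synthesis (-0.08) and CDK inhibitors with D cyclins (-0.06) had medians that turned to 0.04, 0.03 and 0.01 after the second quantile normalization. The ATF4 response (0.08), amino acid transporters (-0.16), nucleotide synthesis (-0.13), TGF-beta signalling (-0.10), FoxO and PI3K genes (0.01) and the Notch pathway (0.04) had no called member either.

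Of 19 core Treg genes, 7 had a Rag effect and 2 a Rheb effect above 0, with medians of -0.26 and -0.28, and the median of their difference, -0.14, became 0.06 after the second quantile normalization. Of their differences 7 were above 0, and at an unadjusted p below 0.05 there were 3 in each direction. Tigit and Nt5e are described above, and Gpr83, an orphan receptor gene typical of Tregs, gave -0.93 (interval -1.51 to -0.36). On the positive side were Socs2, Itgae, which encodes the integrin CD103 (1.15, interval 0.01 to 2.28), and Ikzf4, which encodes Eos (0.73, interval 0.13 to 1.33). Il2ra and Ctla4, the defining surface receptors of these cells, gave 0.41 (interval -0.20 to 1.02) and -0.32 (interval -0.87 to 0.23). Effector Treg genes had a median of -0.12, resting T cell genes -0.20 and cytokine genes 0.075. TCR-induced genes, at -0.09, genes of the IL-2 receptor pathway, at -0.054, and immediate early genes, at -0.009, turned to 0.12, 0.055 and 0.12 after that normalization. Bhlhe40, a transcription factor induced by T cell receptor signals, read 10.81 and 11.15 on Rag KO arrays against 10.09 and 9.04 and overlapped in the Rheb experiment, for a difference of 1.24 (interval 0.43 to 2.05).

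Among receptors of migration, Ccr9 was the 1 called member of 31 chemokine genes and receptors, whose median was 0.11, and Ccr3, the eotaxin receptor, gave -1.62 (interval -2.45 to -0.78) from a low signal, under the 25th percentile on 5 arrays. Integrin genes had a median of -0.12, with Itga2 at -1.14 (interval -1.87 to -0.40), Itgb1 at -0.92 (interval -1.61 to -0.23) and Itgae above 0. Inhibitory and costimulatory receptors had a median of -0.24, with Tigit lowest and Cd160 at 0.79 (interval 0.14 to 1.44). Death and Bcl2 family genes had a median of -0.27, below 0 with any 1 array left out, and Casp1, the inflammasome protease, gave -0.89 (interval -1.43 to -0.34). Iron genes, with a median of -0.12, were spread widely: the transferrin receptor Tfrc gave -1.23 (interval -2.12 to -0.35), the exporter Slc40a1 -0.96 (interval -1.59 to -0.33) and the ferric reductase Cybrd1 0.87 (interval 0.24 to 1.50), the last with a called Rag effect of 1.54 (adjusted p = 0.0209, limma). Gaa, Tpp1, Atp6v0d1, Ifit2, Mx2, Slfn5, Gpr83, Itgae, Ikzf4, Il2ra, Ctla4, Itgb1 and Tfrc were named after their values were seen.

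**Figure D4:**
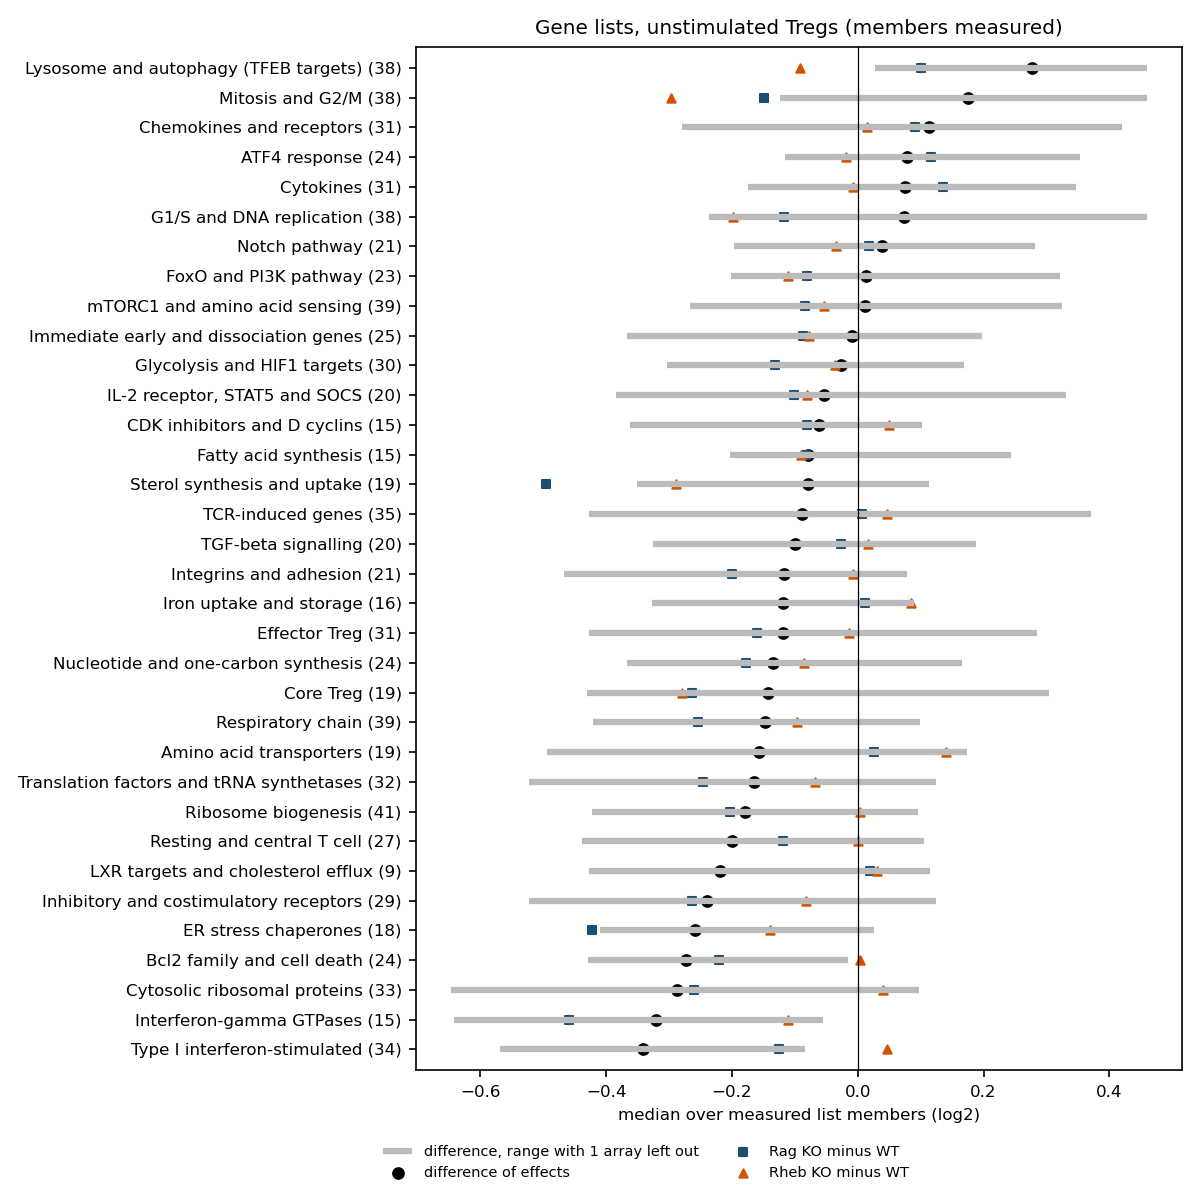
Median over the measured members (log2) of the Rag effect (squares), the Rheb effect (triangles) and their difference (circles) for 34 gene lists, with the range of the difference's median when 1 array is left out (grey). The grey range stays on 1 side of 0 for lysosome genes (0.03 to 0.46), for both interferon lists and for Bcl2 family genes, and spans 0 for the others.

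Markers of other blood cells differed between the arrays. In bulk samples, fewer cells of a type and less RNA per cell cannot be told apart. The 10 measured neutrophil markers had a mean of 8.89 on Rag KO array 2 and 6.97 on array 1, 7.44 and 6.24 on their WT arrays, and 6.34 to 6.57 on the arrays of the Rheb experiment. S100a8, an abundant neutrophil protein gene, read 8.66 and 5.76 on Rag KO arrays 2 and 1 and 6.14 and 4.18 on the WT arrays. The list's median difference was 1.07, with 10 of 10 members above 0 and none called or under an unadjusted p of 0.05. It was 2.07 without Rag KO array 1 and 0.16 without Rag KO array 2. With 1 unstimulated array left out, differences ran from 2.58 to 3.61 for Hpgds, 2.005 to 2.82 for Ccr9 and 2.13 to 2.72 for Eps8l1. They ran from 1.89 to 2.73 for Lilr4b, 1.895 to 2.44 for Col27a1 and -2.66 to -2.35 for Rraga. The part of neutrophil RNA in these differences was not tested. Markers of mast cells and basophils, which express Hpgds and Il4, had means of 7.03 and 7.36 on Rag KO arrays, 7.08 and 6.30 on their WT arrays and 6.78 to 6.95 in the Rheb experiment, and 9 of 9 differences were above 0 (median 0.30). Cpa3, a mast cell protease, lay below the array median on all 10 arrays, with 6.76 and 7.30 on Rag KO arrays and 6.84 and 6.01 on their WT arrays. The part of these cells in the results for Hpgds and Il4 was not tested.

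Macrophage markers averaged 6.34 and 6.67 on Rag KO arrays and 6.41 and 6.00 on their WT arrays, but 7.58 to 7.73 on Rheb1/2 KO arrays and 7.23 to 7.31 on their WT arrays, and 5 of 12 differences were above 0 (median -0.12). C1qa, a complement gene of macrophages, rose in the Rheb1/2 KO, to 8.82, 8.68 and 8.66 from 7.32, 7.55 and 7.88 (adjusted p = 0.0228, limma), and its difference was -0.74 (interval -1.41 to -0.08). Abca1 and Slc40a1, which macrophages also express, were higher on the same arrays, and the part of macrophage RNA in their differences was not tested. Dendritic cell markers, a list that includes Ccr9, averaged 7.47 and 7.64 on Rag KO arrays, 7.12 and 6.71 on their WT arrays and 7.57 to 7.92 in the Rheb experiment, with 8 of 12 differences above 0. H2-Aa, a class II chain, gave 0.84 (interval 0.16 to 1.52), and the part of dendritic cells in the result for Ccr9 was not tested. B cell markers had a median difference of 0.07, with 5 of 10 above 0. Medians of the remaining marker lists were 0.11 for NK cells, 0.06 for CD8 T cells, 0.24 for gamma-delta T cells, 0.17 for plasma cells, 0.02 for erythroid, 0.04 for stromal and -0.28 for conventional CD4 T cells. The 12 markers of T cell and Treg identity had a median difference of -0.25, with 10 below 0 and none called, or -0.07 after the second quantile normalization. Their median Rag effect was -0.34, with 1 of 12 above 0, and their median Rheb effect -0.10. Without 1 array the median of the difference ran from -0.55 (without Rag-experiment WT array 2) to 0.20 (without WT array 1). C1qa, S100a8, Cpa3 and H2-Aa were named after their values were seen.

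**Figure D5:**
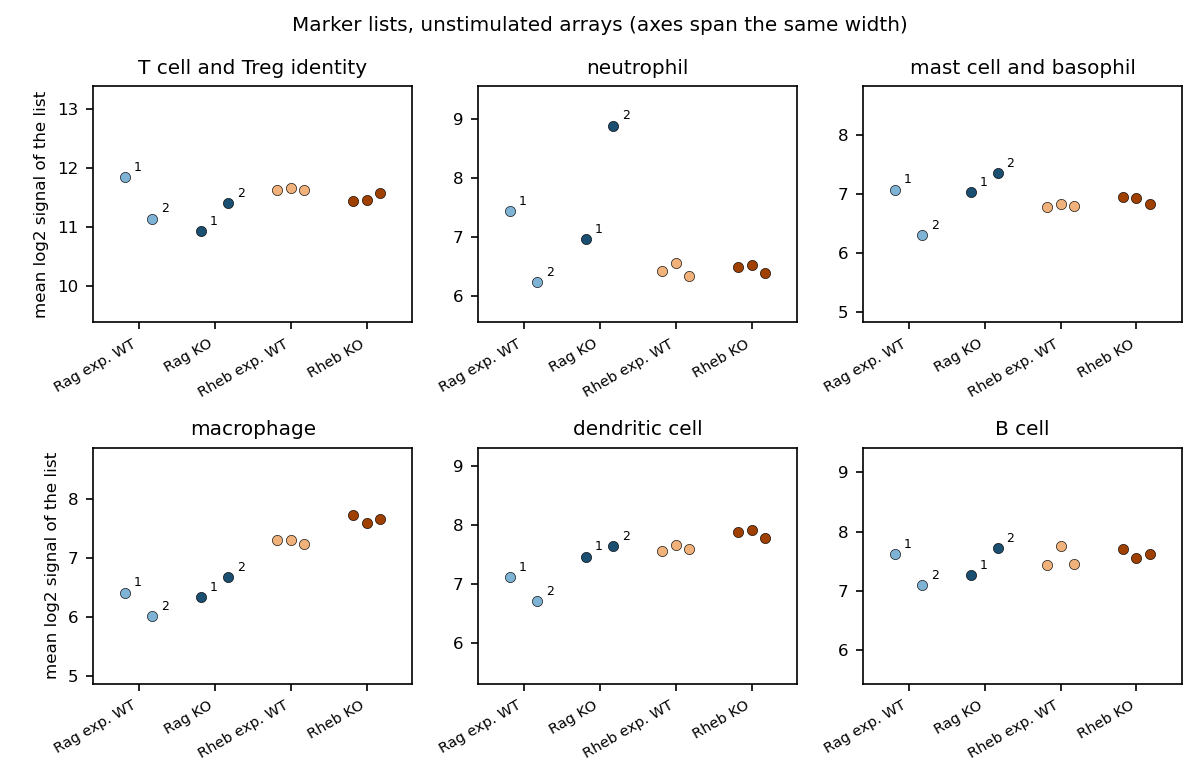
Mean log2 signal of 6 marker lists on each unstimulated array, with arrays of the Rag experiment numbered 1 and 2. Neutrophil markers are highest on Rag KO array 2 (8.89), and macrophage markers are higher on all 6 arrays of the Rheb experiment (7.23 to 7.73) than on the 4 of the Rag experiment (6.00 to 6.67).

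The number of arrays limits how small a difference could be shown. The 95% interval of the difference lay within 1 log2 of 0 for 14717 of 19505 genes (75.5%) and within 0.5 log2 of 0 for 0 genes.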

How the data were processed

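The deposited table gave 1 log2 signal per probe set and Clariom S array, which the authors had made by RMA with Affymetrix Expression Console 1.1, per the submitters' processing notes; joint or separate normalization of the experiments is not given in the sources used here. RMA subtracts background and equalises the distributions of the arrays it is run on, so a shift of most genes between arrays can be hidden. The values used here were still unequal in distribution. The 99th percentile over genes was 11.34 and 11.86 on unstimulated Rag KO arrays 1 and 2. It was 12.11 and 11.46 on their WT arrays and 11.99 to 12.07 in the unstimulated Rheb experiment. The main fit took these values without further scaling. Of 28846 probe sets 19572 carried 1 gene, 0 carried several and 9274 had no gene name here. For 55 genes with more than 1 probe set the probe set of highest mean was kept, leaving 19505 genes, all tested and none filtered. RNA had been amplified from 1 to 20 ng, per the labels.

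Groups followed the titles. In each experiment limma 3.58.1 (R 4.3.3) fitted 1 mean to each of 4 groups with 1 spread per gene. The difference of the effects took the sum of both moderated variances, with degrees of freedom by the Welch-Satterthwaite formula, two-sided, and Benjamini-Hochberg adjustment over all genes. Calls need an adjusted p below 0.05. The script was checked on simulated data with known changes, in 10 draws of normal noise. It called 35.8% of changes of 1 log2 and 99.3% of changes of 2 log2. The noise was independent between genes and had no shifts of whole arrays. Each draw also changed more genes than were called in the real arrays, which eases the adjusted threshold. These shares therefore do not give the share of real differences that could be called. In the real arrays Il4, at 2.72, and Lilrb4a, at 2.81, were not called. Of its calls, 7.79% were genes left unchanged. The members, lists and tests were chosen with earlier results of these data known.

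Named genes were the targeted genes, the 15 largest differences in each direction among called genes, filled up by unadjusted p, up to 4 called members of each of 34 lists or otherwise the 2 with the smallest p, and genes with both effects called in the same or in opposite directions (predicted or unnamed symbols only within lists). Genes outside this rule are given as chosen after their values were seen. Alternatives were a second quantile normalization, centring, leaving out the 40% of genes of lowest signal, other variance models, the mean over probe sets, a block for the replicate number, and omission of each of 20 arrays. Same-numbered arrays did not deviate together (correlations from -0.054 to 0.178 in unstimulated groups), so the numbers were not taken as pairs. Lists were described by counts and medians and not tested as sets. Sequences and motif counts used RefSeq promoters on GRCm38.p6, and all 7 called genes were matched by symbol.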

Additional observations from a re-analysis of the deposited data

How the results depend on the processing

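Of 2715 values of named genes under the alternatives, 2605 had the same direction and side of the threshold, 80 passed it newly, 24 lost it and 6 turned sign. The turned values, all for differences that were not called and all with 1 array left out, belonged to Rheb (range with 1 array left out -0.27 to 0.53), Rragb (-0.55 to 0.31), Lpcat3 (-1.13 to 0.13) and Mcm5 (-0.047 to 1.08); the cause was not tested. The 7 called differences gave 22 calls after a second quantile normalization, 14 after centring, 11 without the 40% of genes with the lowest signal, 18 with a trended and robust prior, 0 with no moderation of the variance (738 at an unadjusted p below 0.05) and 11 with 1 spread shared by both experiments; all 7 genes were among the calls except under no moderation. With only the groups compared there were 8 calls, 6 of the 7 among them, without Lcn10. With 1 array left out the count ran from 0 to 245. The 22 called Rag effects became 45, 35, 37, 96, 1 and 210 under the same settings in that order, 12 with only the groups compared, and 0 to 530 with 1 array left out. The 99 called Rheb effects became 200, 23 and 28 with the trended prior, no moderation and the shared spread, 27 with only the groups compared, and 39 to 104 with 1 array left out. The 25 stimulated differences became 46, 56, 46 and 1 with quantile normalization, centring, the trended prior and no moderation, 174 with only the groups compared, and 1 to 65 with 1 array left out. With the replicate number as a block the counts were 10, 27, 69 and 35, and no called difference was lost. List medians moved beyond their spread in 52 of 986 cases, in 27 of 34 lists. With 2 arrays a group in the Rag experiment, the values of a lone remaining array were assumed to vary like the other groups.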

Other observations

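A window of 25 Mb on each side of Rraga on chromosome 4, which holds Col27a1, was examined after the data were seen. Of its 202 other measured genes, 16 (7.92%) had an unadjusted p below 0.05 for the difference, against 5.11% of all genes, and Col27a1 was the 1 called gene. In the same window around Rheb on chromosome 5, 12 of 257 genes (4.67%) had an unadjusted p below 0.05 and 0 were called. The median difference was 0.011 near Rraga and -0.016 near Rheb.

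Among the 25 genes called in stimulated Tregs, several had a small difference without stimulation. Asah1, the lysosomal acid ceramidase, gave 1.98 ± 0.31 stimulated and -0.23 ± 0.31 unstimulated. Usp18, which removes ISG15 from proteins, gave 2.12 ± 0.33 and -0.22 ± 0.33. Hgf, hepatocyte growth factor, gave 2.21 ± 0.37 and -0.60 ± 0.37. The drug efflux pumps Abcb1a and Abcb1b had positive differences in both states, 2.98 and 2.12 stimulated and 1.34 and 1.28 unstimulated. These genes were picked after their values were seen, and none had a called change of the difference with stimulation.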
